A study of Rattus norvegicus with 14 samples.

Results

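The 5 erythroid genes described here, Hbb, Hba-a2, Alas2, Slc4a1 and Tspo2, were chosen by name as genes of red blood cells and read as a gauge of the blood held in a piece of muscle. They were represented by 6 of the 30367 probes on the array and are 5 of the 18235 genes named there. The muscle was plantaris, a fast-twitch calf muscle, of Wistar rats, with total RNA of each muscle sample on 1 array. The control diet (n = 4 arrays) held vitamin D at 1000 IU/kg. The depletion group (n = 6) had a vitamin D depletion diet, and the repletion group (n = 4) was first depleted and then repleted. Sex, age, feeding times and the vitamin D level of the depletion and repletion diets were not used here. The titles call the samples of a group biological replicates and do not say that each came from a separate rat, so p-values measure the spread between these samples. Depletion replicate 1 has a diet field that names the repletion diet, against its title. It was kept as depletion, and because it was the highest array for the globins, Alas2 and Slc4a1, the main values are also given without it.

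Haemoglobin carries oxygen as a tetramer of alpha and beta chains, each holding a haem group. Red cells make haem and globin during their maturation in the marrow, and the youngest circulating red cells, the reticulocytes, still carry globin messenger RNA although they have lost the nucleus. A muscle that is not flushed of blood therefore brings some of this RNA into the extract. Of the 5 genes, Hbb and Hba-a2 encode a beta and an alpha chain of adult haemoglobin. Alas2 encodes the erythroid enzyme that starts haem synthesis, Slc4a1 the anion exchanger band 3 of the red cell membrane, and Tspo2 an erythroid relative of the mitochondrial translocator protein TSPO.

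The probe sequences show what each spot can and cannot tell apart. Hbb had 2 probes on chromosome 1 of rn4, the build named in the array files. The 5′ probe (161620134 to 161620193, minus strand) covers the start of the message, and the last 30 of its 60 bases are shown with the start codon in capitals. The 3′ probe (161584872 to 161584931, minus strand) ends beyond the polyadenylation signal, in capitals in its last 30 bases. Although also named Hbb, it maps apart from the 5′ probe, with Hbb-b1 probes (from 161590854 and from 161597660) between them on rn4. Its accession list in the files also names the neighbouring beta-globin genes Hbb-b1 and Hbbl1, so it reports beta-globin messages together.

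Hbb 5′ probe: actcagaaacagacaccATGgtgcacctga
Hbb 3′ probe: tttgaaaatctgtcctactAATAAAaggca

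No probe carried the name Hba-a2. The alpha-globin probe used for it (chromosome 10, 15585140 to 15585199, rn4, minus strand) is named Hba1 in the files and lists the RefSeq transcripts of both Hba-a1 and Hba-a2. It is shown whole, with the start codon in capitals, above the first transcribed bases that RefSeq (GRCr8) gives for these genes at the same place.

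Hba-a2 probe: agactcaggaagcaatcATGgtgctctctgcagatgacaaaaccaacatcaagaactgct
Hba-a1 transcript start: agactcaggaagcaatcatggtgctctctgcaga
Hba-a2 transcript start: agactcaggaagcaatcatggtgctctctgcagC

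Over the 34 bases that could be compared the probe was equal to Hba-a1 and differed from Hba-a2 by 1 base, A34C, with positions counted from 1 at the 5′ end of the probe and the capital marking the difference. The spot is called Hba-a2 below, and the messages of the 2 alpha-globin genes were not told apart. The Alas2 probe (chromosome X, 39810353 to 39810412, rn4, plus strand) reads through 1 frame without a stop codon, and the Tspo2 probe, which the files leave unmapped, holds a polyadenylation signal, in capitals in its last 30 bases. The Slc4a1 probe lies on chromosome 10 at 91455352 to 91455411 (rn4, minus strand).

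Alas2 probe: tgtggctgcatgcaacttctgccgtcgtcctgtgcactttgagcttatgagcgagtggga
Tspo2 probe: acacAATAAAaccctgttgttgaccctgaa

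A level below is the log2 of a probe's signal over the 75th percentile of its array, so each unit is a doubling, and the level of one probe was not set against that of another. All 6 probes were kept by the filter on dim probes. Hbb, Hba-a2, Alas2 and Slc4a1 were well above background on all 14 arrays and Tspo2 on 13, the exception being repletion replicate 2. The Tspo2 signal itself was only 8.99 (repletion 2) to 34.9 (depletion 1), and that of Slc4a1 40.6 (control 2) to 260 (depletion 1). On a given array 82.8% to 88.1% of spots were well above background, the 75th percentile of the signal was 1781 to 2387, and any pair of arrays correlated at 0.956 to 0.991 across probes. The muscle label was borne out by fibre genes such as Acta1, Ckm and Myh4: all 10 genes listed as muscle fibre markers were well above background on all 14 arrays. The arrays came on 5 slides. Slide 1 held control replicates 1 and 2 with repletion 1 and depletion 1, and slide 2 held control 3, repletion 2 and depletion 2. Repletion 3 with depletion 3 and 4 was on slide 3, control 4 with depletion 5 on slide 4, and repletion 4 with depletion 6 on slide 5. The number of arrays limits the precision.

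Beta globin was high on depletion replicate 1 and low on depletion replicate 6. The Hbb 3′ probe read 5.21, 4.76, 4.65 and 4.11 in control replicates 1 to 4 and 4.93, 4.47, 5.06 and 5.46 in repletion replicates 1 to 4. In depletion its lowest level was 4.38, its median 5.42 and its highest 6.42. The group means were 4.68 ± 0.45 (SD, n = 4) in control, 5.38 ± 0.65 (n = 6) in depletion and 4.98 ± 0.41 (n = 4) in repletion. All depletion arrays but depletion 6 exceeded the control mean, and the groups overlapped. The 5′ probe read 0.36, -0.46, -0.35 and -0.16 in control, and -0.15, -0.86, -0.17 and 0.74 in repletion. Its lowest, median and highest levels in depletion were -0.54, 0.41 and 1.68. The same arrays, depletion 1 and depletion 6, held the ends of the depletion group, and in repletion the highest was again replicate 4 and the lowest replicate 2. Both Hbb probes correlated at r = 0.88 over the 14 arrays and at 0.79 without depletion 1. Whether they read the same beta-globin gene was not tested.

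Alpha globin followed a similar order. The Hba-a2 probe read 1.86, 1.46, 1.55 and 1.36 in control replicates 1 to 4, and 1.42, 1.32, 1.90 and 2.24 in repletion replicates 1 to 4. In depletion its lowest level was 0.91, its median 2.10 and its highest 3.32. The lowest of all 14 arrays was depletion 6 and the highest depletion 1, so the depletion group spanned both other groups. Group means were 1.56 ± 0.22 (SD, n = 4), 2.13 ± 0.77 (n = 6) and 1.72 ± 0.43 (n = 4) in control, depletion and repletion.

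Alas2 read -2.41, -2.74, -2.46 and -3.03 in control and -2.66, -2.96, -2.22 and -1.66 in repletion. Its depletion arrays ran from -2.97 through a median of -1.96 to -0.33. Apart from depletion 6, every depletion array was above all 4 control arrays, and repletion 4 was above every depletion array but depletion 1. Slc4a1 read -5.37, -5.59, -4.65 and -5.03 in control and -5.25, -4.66, -4.93 and -4.70 in repletion, with -5.24, -4.74 and -3.18 as the lowest, median and highest of depletion. Here control 3 and repletion 2, both on slide 2, were higher than 3 of the 6 depletion arrays, whereas for the Hbb 3′ probe and Hba-a2 depletion 6 was the only depletion array below them. Tspo2 read -6.83, -7.09, -6.74 and -6.67 in control and -6.84, -7.84, -6.97 and -6.70 in repletion. Its lowest, median and highest depletion levels were -7.03, -6.27 and -6.02, and apart from depletion 6 all depletion arrays were above all control and repletion arrays. Tspo2 was the exception to the lead of depletion 1, since depletion 3 was highest.

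**Figure D1:**
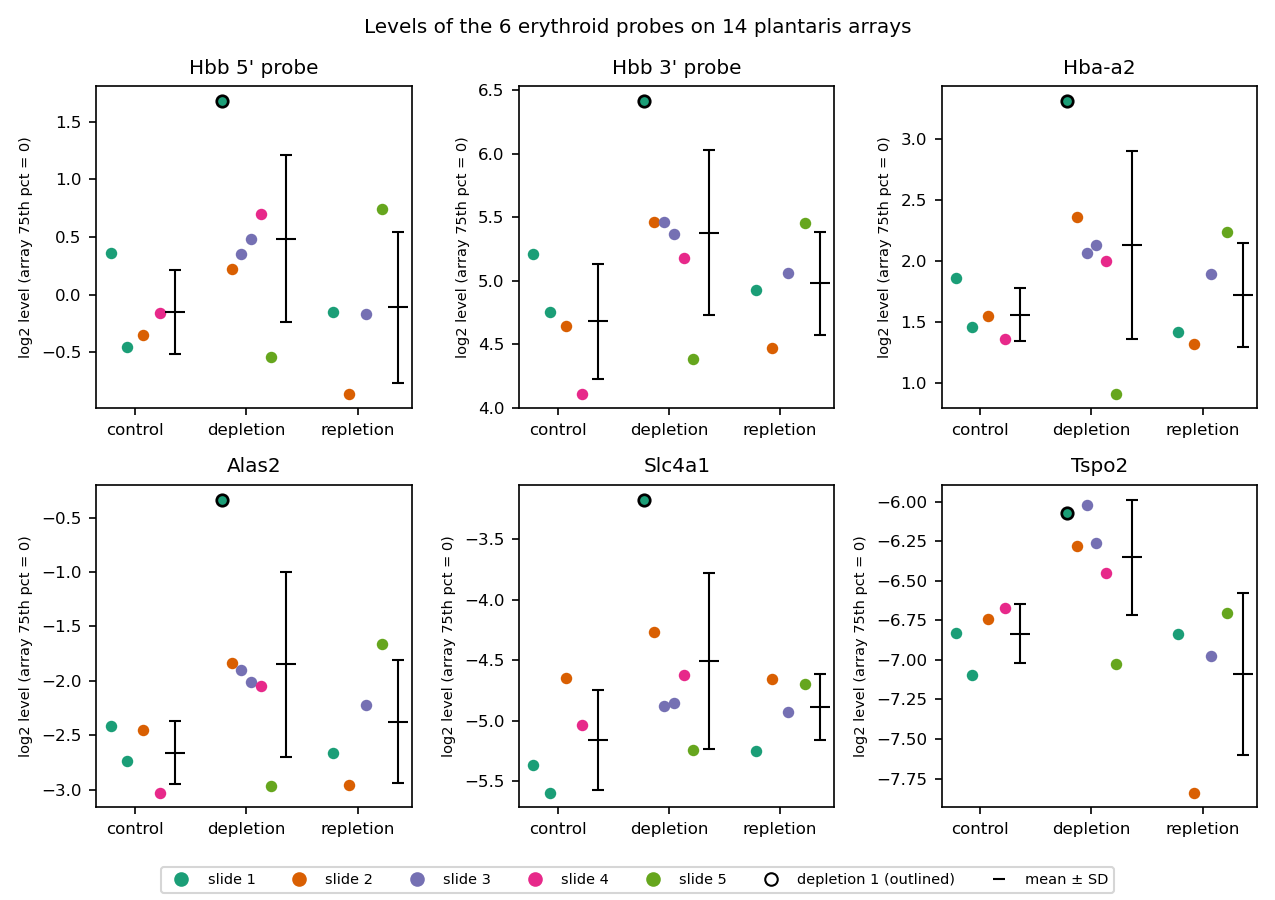
Log2 level of each of the 6 probes (vertical axis, relative to the array's 75th percentile) on every array, by diet (horizontal axis), with points coloured by slide, depletion 1 outlined in black, and bars giving the group mean ± SD. Depletion 1 was the highest array on 5 of the 6 panels and depletion 6 was the lowest of the depletion group on all of them.

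Depletion replicate 1 led by a gap on 5 of the 6 probes, although on none was that gap past Dixon's 95% value for its diet group (0.397 to 0.569 of the range of the depletion arrays). It exceeded the next highest array by 1.92-fold on the Hbb 5′ probe, 1.93-fold on the Hbb 3′ probe, 1.94-fold for Hba-a2, 2.51-fold for Alas2 and 2.13-fold for Slc4a1. For Tspo2 it was second, 0.05 below depletion 3 on the log2 scale. Against the control mean it was 3.33-fold higher on the Hbb 3′ probe, 3.39-fold for Hba-a2, 5.01-fold for Alas2, 3.96-fold for Slc4a1 and 1.70-fold for Tspo2. Across all 14 arrays the highest and lowest levels of a probe differed by 3.53-fold (Tspo2) to 6.48-fold (Alas2). With depletion 1 left out, the span was 2.50-fold for Slc4a1 to 3.53-fold for Tspo2, so a span of at least 2.50-fold remained for each gene. In whole muscle RNA, more cells of a type and more RNA per cell cannot be told apart.

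The genes rose and fell together from array to array, as the correlation of their levels shows. Over the 14 arrays Pearson's r was 0.97 for Hba-a2 with Alas2, 0.96 for Hbb with Alas2 and 0.95 for Hbb with Hba-a2, with the Hbb 3′ probe standing for Hbb. Spearman's rho for these pairs was 0.97, 0.96 and 0.94. Each of these 6 values had a permutation p of 1e-05, the smallest that 100000 permutations can give, and a p of 3.33e-05 after adjustment over the 10 pairs of genes. The 3 relations stayed when the 2 arrays farthest from the median of the first gene were left out (r = 0.96, 0.93 and 0.95), and were 0.95, 0.93 and 0.90 without depletion 1. The 2 globin chains and the first enzyme of haem synthesis thus kept nearly the same order of arrays on probes of 3 separate genes.

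Slc4a1 and Tspo2 were tied less closely to the globins. Slc4a1 correlated with Hbb at r = 0.68 (adjusted permutation p = 0.0124) but rho was 0.47 (adjusted permutation p = 0.0935). Leaving out depletion 1 and control 4, the arrays farthest from the Hbb median, gave r = 0.34 (adjusted permutation p = 0.307), so that relation rested on those arrays. With Hba-a2 and with Alas2, Slc4a1 gave r = 0.80 and 0.82 (adjusted permutation p = 0.00434 for both), and without the 2 farthest arrays 0.49 and 0.55 (adjusted permutation p = 0.129 and 0.0916). Tspo2 correlated with Hbb, Hba-a2 and Alas2 at r = 0.68, 0.69 and 0.70 (adjusted permutation p = 0.0107 for each), with rho of 0.71, 0.76 and 0.71 (adjusted permutation p = 0.0099, 0.0057 and 0.0099). Those 3 values held without the 2 farthest arrays, at 0.78, 0.68 and 0.78 (adjusted permutation p = 0.00312, 0.0165 and 0.00312). Slc4a1 and Tspo2 with each other gave r = 0.46 and rho = 0.53, which did not pass (adjusted permutation p = 0.100 and 0.0592), and r = 0.19 without the 2 farthest arrays (adjusted permutation p = 0.551). In all, 9 of the 10 pairs passed by Pearson's r, 6 without depletion 1, and 4 with normexp background correction, where r ran from -0.12 to 0.95.

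The tie of Slc4a1 to the other genes was closer within slides. A slide held at most 4 arrays, so no correlation within 1 slide was computed, and the slide means were removed instead. This raised Slc4a1 with Hbb from r = 0.68 to 0.85, and without depletion 1 from 0.33 to 0.93. For the other pairs r with slide means removed was 0.97 (Hbb with Hba-a2), 0.97 (Hbb with Alas2), 0.98 (Hba-a2 with Alas2), 0.89 (Hba-a2 with Slc4a1) and 0.93 (Alas2 with Slc4a1). Pairs with Tspo2 ran from 0.60 to 0.75. With depletion 1 also left out, the 10 pairs ran from 0.56 to 0.98. Once depletion 1 was left out, slide explained a share of 0.75 of the variance of Slc4a1, against 0.18 to 0.25 for the other 5 probes. Over all 14 arrays the share was 0.07 to 0.21 for the 6 probes, below the median of 0.47 over all probes with 14 values.

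**Figure D2:**
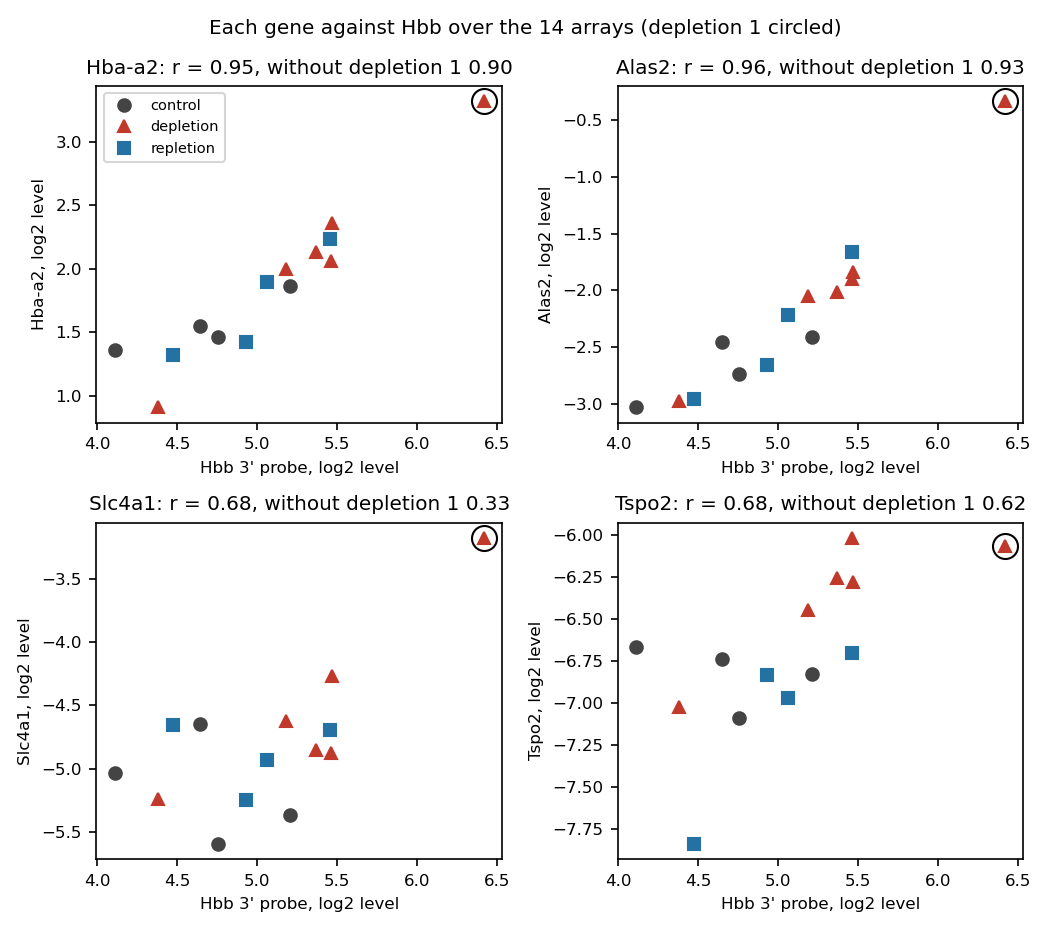
Level of Hba-a2, Alas2, Slc4a1 and Tspo2 (vertical axes, log2) against the Hbb 3′ probe (horizontal axis, log2), 1 point per array, with diets by colour and shape and depletion 1 circled. Hba-a2 and Alas2 follow Hbb closely with r = 0.95 and 0.96, whereas r for Slc4a1 goes from 0.68 to 0.33 without the circled array.

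Depletion against control asked whether muscle under the depletion diet held other levels of these transcripts. All 6 probes were higher in depletion by point estimate, by a median of 0.82 on the log2 scale, where the median of all 26423 probes tested was -0.02 and 45.3% of them were higher. None passed: with slide in the model, limma called 0 of the 6 and 0 of all probes (0%) at an adjusted p under 0.05. At an unadjusted p under 0.05, limma had 2 of the 6 probes higher, where 2.15% of all probes were higher and 2.68% lower. The Hbb 3′ probe differed by 0.84 ± 0.35 (SE; 95% interval 0.06 to 1.63; limma adjusted p = 0.832), which is 1.79-fold, and the 5′ probe by 0.80 ± 0.43. Hba-a2 differed by 0.73 ± 0.42, Alas2 by 0.97 ± 0.48, Slc4a1 by 0.89 ± 0.39 and Tspo2 by 0.45 ± 0.28, all with the same limma adjusted p of 0.832. For each probe 5 of 6 depletion arrays exceeded the control mean, depletion 6 being the one below it. The groups overlapped on all 6 probes. Over all probes they lay fully apart for 0.340% higher and 0.508% lower in depletion. Levels of the 6 probes were correlated to differing degrees over the arrays. A shared sign, here and in the comparisons below, therefore does not count as 6 separate results.

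Within slides that held both diets, all 6 probes were higher in depletion on each of the 3 slides. On slide 1 the differences ran from 0.89 (Tspo2) to 2.31 (Slc4a1), with depletion 1 as the only depletion array. Slide 2 gave 0.38 to 0.82, and slide 4, with control 4 and depletion 5, gave 0.22 to 1.07. Each of these slides held a single depletion array. Depletion 3, 4 and 6 shared no slide with a control array, so depletion 6, which lay below the control mean on all 6 probes, could not enter this comparison. Without depletion 1 the estimates over the remaining arrays were 0.53 and 0.36 for the Hbb 3′ and 5′ probes, 0.26 for Hba-a2, 0.37 for Alas2, 0.27 for Slc4a1 and 0.32 for Tspo2. Tspo2, which was not well above background on repletion 2, was at -0.089 with normexp background correction, where the median of all probes was -0.14. It was at 0.18 on the authors' values, and Slc4a1 at 0.33 with normexp.

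Repletion against depletion asked whether repletion moved these levels. All 6 probes were lower in repletion by point estimate, by a median of -0.51, where the median of all probes was 0.04 and 58.9% of all probes were higher. Again limma called 0 of the 6 and 0 of all probes (0%) at an adjusted p under 0.05. At an unadjusted p under 0.05 it had 1 of the 6 lower, Tspo2, where 0.965% of all probes were lower and 2.51% higher. Tspo2 differed by -0.69 ± 0.26 (95% interval -1.27 to -0.12), the Hbb 3′ probe by -0.46 ± 0.32, the 5′ probe by -0.56 ± 0.40, Hba-a2 by -0.42 ± 0.38, Alas2 by -0.58 ± 0.44 and Slc4a1 by -0.41 ± 0.35, all with a limma adjusted p of 0.933. For Tspo2 the difference was -0.17 ± 0.22 with normexp background correction. It was -0.41 without repletion 2, the array on which Tspo2 was not well above background. Over all alternative fits it ran from -0.98 to -0.11. The groups overlapped on all 6 probes, where 0.0763% of all probes lay fully apart and lower in repletion and 0.233% higher. The slides did not point one way. Slides 1, 2 and 3 had all 6 probes lower in repletion, with medians of -1.87, -1.06 and -0.31, but on slide 5 repletion 4 was above depletion 6 on all 6 probes, by 0.32 to 1.33. With slide 5 left out, or either of its arrays, the differences were -0.68 to -1.11. Without depletion 1 they were -0.01 (Slc4a1) to -0.61 (Tspo2), and with that array counted as repletion, as its diet field has it, Hba-a2, Alas2 and Slc4a1 turned to 0.030, 0.012 and 0.19.

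**Figure D3:**
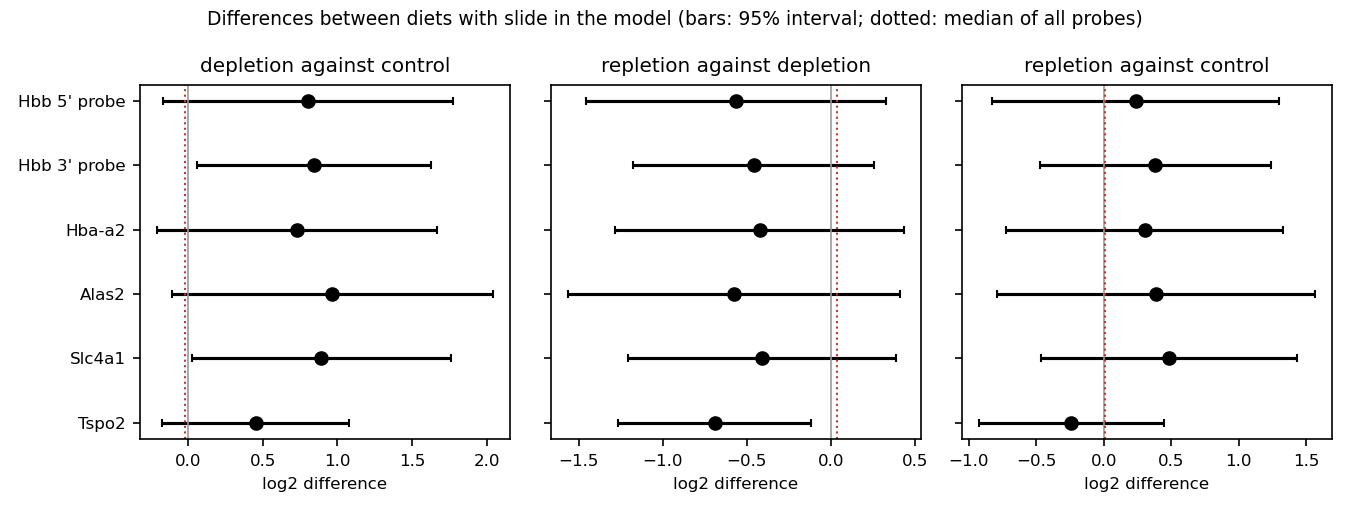
Log2 difference between diets for each of the 6 probes with slide in limma's model (horizontal axis), with bars giving the 95% interval and a dotted line at the median of all probes, in 3 panels for the 3 comparisons. In depletion against control all 6 points lie between 0.45 and 0.97, in repletion against depletion between -0.69 and -0.41, and in repletion against control between -0.24 and 0.48.

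Repletion against control asked whether repleted muscle was back at the control level. Here limma called 0 of the 6 and 0 of all probes (0%) at an adjusted p under 0.05, and 0 of the 6 had an unadjusted p under 0.05, where 1.31% of all probes were higher and 0.693% lower. Of the probes, 5 were higher in repletion by point estimate and Tspo2 was lower, with a median of 0.34 against 0.01 for all probes, of which 53.6% were higher. The Hbb 3′ probe differed by 0.38 ± 0.38 (95% interval -0.47 to 1.24), the 5′ probe by 0.24 ± 0.47, Hba-a2 by 0.30 ± 0.46, Alas2 by 0.39 ± 0.52, Slc4a1 by 0.48 ± 0.42 and Tspo2 by -0.24 ± 0.31, with limma adjusted p values of 1.00. Every interval included both a rise and a fall, so equal levels were not shown. The groups overlapped on all 6 probes, and over all probes lay fully apart for 0.682% higher and 0.457% lower. Slides 1 and 2 were the only ones with both diets: on slide 1 the differences were -0.24 to 0.23, and on slide 2 all 6 were lower in repletion, by -0.01 to -1.10. When limma was fitted to the control and repletion arrays alone, the Hbb 3′ and 5′ probes, Hba-a2 and Alas2 turned to -0.10, -0.28, -0.24 and -0.26. Without repletion 4, or without depletion 6, the Hbb 5′ probe was at -0.085 and Hba-a2 at -0.0020, and without repletion 2 Tspo2 was at 0.12. The 3 comparisons share their arrays in pairs and are not independent of each other.

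**Figure D4:**
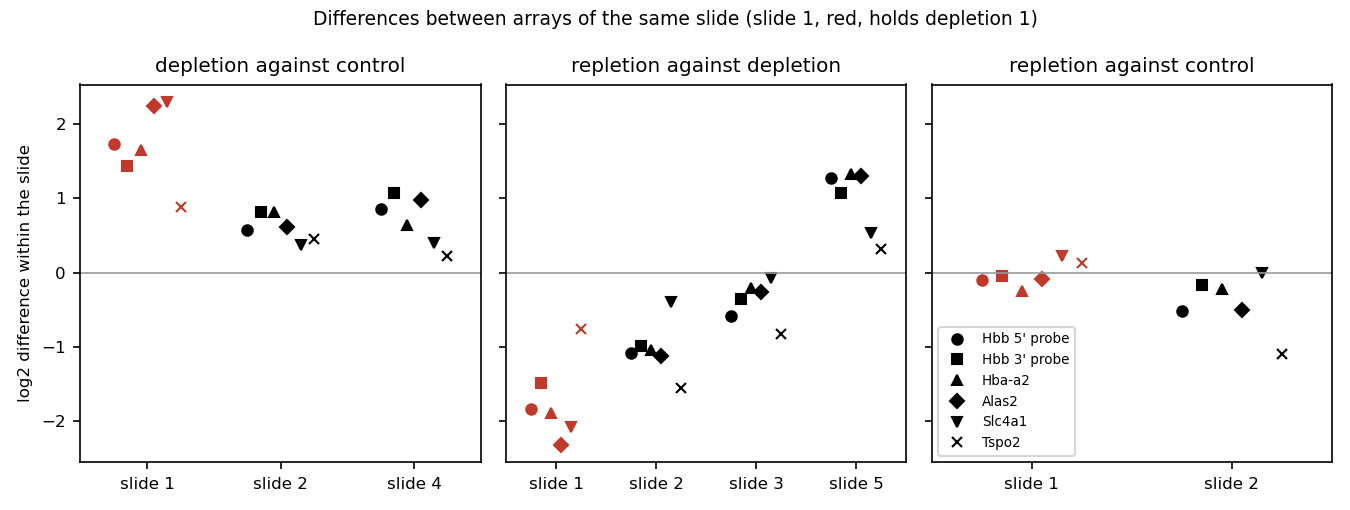
Log2 difference between diets within each slide that held both (vertical axis), with 1 symbol per probe and slide 1, which holds depletion 1, in red. Depletion was above control on slides 1, 2 and 4 for every probe, while repletion was below depletion on slides 1, 2 and 3 and above it on slide 5.

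The probes that moved most closely with beta globin were those of other globin genes, in part by construction, since the Hbb 3′ probe also lists Hbb-b1 among its own targets. In a limma model of each probe's level on the level of the Hbb 3′ probe, with slide and diet included, 4 of 26417 probes (0.0151%) varied with Hbb at an adjusted p under 0.05, all upward and none downward. At an unadjusted p under 0.05 limma had 2.19% upward and 2.98% downward. These 4 were probes of Hbb-b1 and Hbb-bs, beta-globin genes of the adult, of Hba-a1, and of Hbe2, annotated as an epsilon globin, a chain of the embryo. A doubling of Hbb went with a log2 rise of 1.16 ± 0.10 for Hbb-b1 and 1.24 ± 0.10 for Hbb-bs (limma adjusted p = 0.0205 for both), 1.24 ± 0.11 for Hbe2 (0.0257) and 1.01 ± 0.10 for Hba-a1 (0.0342). The other Hbb-b1 probe, which stands for that gene in the ranking below, rose by 1.02 ± 0.11 and was not called (limma adjusted p = 0.0607). The calls depended on having all arrays: limma called the same 4 without control 4 or depletion 5, 3 probes without control 1, 1 without control 2, and 0 without any other single array, each time with fewer arrays to fit the same terms.

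By likeness to the Hbb 3′ probe over the 14 arrays, 4 genes of 15949 had r above 0.9 and none below -0.9. They were Hbb-bs (0.97), Hbe2 (0.97), Hba-a1 (0.96) and Hbb-b1 (0.95), and without depletion 1 these were 0.95, 0.94, 0.93 and 0.91. Next in order came Farsb, a subunit of phenylalanyl-tRNA synthetase, at 0.89, Cd52, a surface antigen of lymphocytes, at 0.89, the necroptosis kinase Ripk3 at 0.84 and Ttc9 at 0.83, and without depletion 1 these were 0.79, 0.81, 0.71 and 0.74. After slide and diet were removed, the same 4 globin genes led (0.98 to 0.99), followed by Slc10a6 (0.97), Olr1057 (0.95), Tspan4 (0.92) and Ahsp (0.92). Over the arrays as they were, Slc10a6, Olr1057, Tspan4 and Ahsp had r of only 0.44, 0.22, 0.19 and 0.26.

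Ahsp encodes the chaperone that holds free alpha globin, and its level differed between slides. It read -4.10, -4.58, -2.59 and -4.19 in control replicates 1 to 4 and -4.41, -2.51, -3.01 and -3.70 in repletion. In depletion it read -3.48 on replicate 1, -1.99 on replicate 2, -2.87 and -2.94 on replicates 3 and 4, -4.18 on replicate 5 and -4.64 on replicate 6. All 3 arrays of slide 2 were among the highest, and on each of slides 1, 2 and 3 a depletion array was highest. With slide means removed its r with Hbb was 0.89, against 0.26 before. Depletion 1, the highest array for the globins, ranked 7th for Ahsp.

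The probes of embryonic globins were read next. Hbe2 (chromosome 1, 161648636 to 161648695, rn4) read 3.13, 2.67, 2.92 and 2.33 in control, 2.66, 2.51, 3.20 and 3.51 in repletion, and 2.21, 3.41 and 4.62 as lowest, median and highest of depletion. Depletion 1 was highest and depletion 6 lowest, as for Hba-a2. Hbe1, the other epsilon gene, was not well above background on any array. Hbg1 and Hbz, annotated as further embryonic or fetal chains, were well above background on all 14 arrays, but had r with Hbb of -0.26 and -0.01. With slide and diet removed r was -0.09 for Hbg1 and 0.67 for Hbz. The Hbe2 probe and an Hbb-b1 probe cover matching coding stretches: over an overlap of 44 bases 35 are equal, and the 9 that differ are in capitals.

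Hbb-b1 probe: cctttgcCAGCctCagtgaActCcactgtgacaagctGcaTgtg
Hbe2 probe: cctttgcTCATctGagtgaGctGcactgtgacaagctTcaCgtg

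Whether the Hbe2 spot also takes up adult beta-globin messages was not tested. Hba-a3, a further alpha-like gene, was well above background on 13 arrays and gave r = 0.67, falling to 0.53 without depletion 1. The globins that are no part of haemoglobin did not follow Hbb: Mb, the oxygen store of muscle fibres, gave r = -0.29, Ngb -0.37 and Cygb 0.57, the last 0.30 without depletion 1. In depletion against control none of the other globins passed in limma. Hbb-bs differed by 0.88 ± 0.43, Hbe2 by 0.76 ± 0.43 and Hba-a1 by 0.70 ± 0.36 (limma adjusted p = 0.832 each), and Mb by 0.08 ± 0.10 (limma adjusted p = 0.888).

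Most other genes of red cell formation did not move with the globins on these arrays. Of 11 haem synthesis genes measured, limma called 0 as varying with Hbb, and their median r over the 14 arrays was -0.17, where the median of all probes was -0.13. They include Alas1, the housekeeping counterpart of Alas2 (r = -0.13), Alad (-0.61), Uros (0.10), Urod (-0.49) and Cpox (-0.17), all enzymes that every cell uses. Of 12 red cell membrane genes kept by the filter, 0 were called and the median r was -0.15, with the spectrin Sptb at -0.40, the glycophorin Gypc at -0.03, Rhd at -0.08, Kel at -0.13 and Ermap at -0.17. In the list of red cell enzymes and late erythroid genes 14 were kept, 0 called, and the median r, over the 13 with a value on every array, was -0.27. The carbonic anhydrases Car1 and Car2 gave -0.49 and 0.32, Bpgm -0.41, Blvrb -0.04 and Trim10 -0.27. Among 12 regulators and receptors 0 were called and the median r was -0.12, with the transcription factors Gata1, Klf1, Tal1 and Nfe2 at 0.01, -0.20, -0.24 and 0.10, and the receptors Epor and Tfrc at 0.60 and -0.18. Several defining red cell genes were near background: Epb42 was well above it on 3 arrays, and Rhag, Hemgn and Gfi1b on 1 each. For Hemgn that array was depletion 1. Without depletion 1 the median r of these lists was -0.08 (haem synthesis), -0.25 (membrane), -0.06 (enzymes and late genes) and -0.05 (regulators), and that of all probes -0.08.

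In depletion against control these 4 lists had 0 genes called by limma, with medians of 0.04 (haem synthesis), -0.13 (membrane), -0.07 (enzymes and late genes) and 0.02 (regulators). At an unadjusted p under 0.05, limma had 3 membrane genes (Sptb -0.29 ± 0.12, Tmod1 -0.34 ± 0.10 and Add2 1.51 ± 0.57) and 2 of the enzyme list (Car2 0.53 ± 0.16 and Trim10 -0.34 ± 0.15), against 2.15% of all probes higher and 2.68% lower. The haem synthesis list had 7 of 11 genes higher and 4 lower, and the membrane list 3 of 12 higher and 9 lower.

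**Figure D5:**
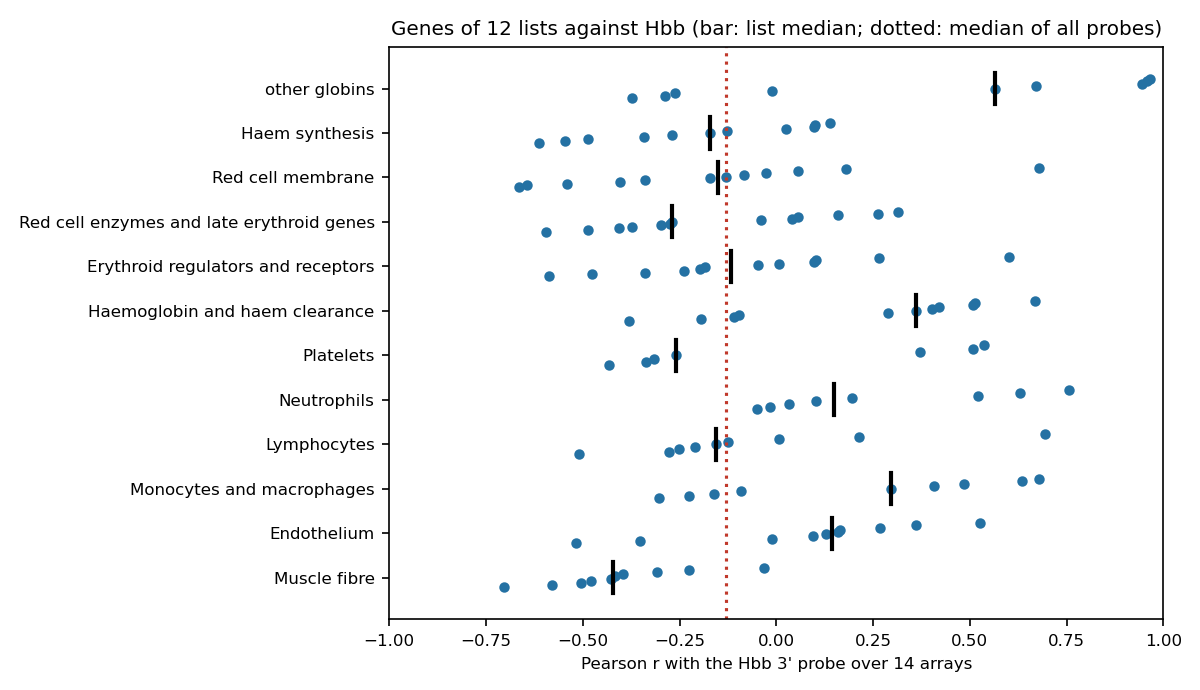
Pearson's r of each gene of 12 lists with the Hbb 3′ probe over the 14 arrays (horizontal axis), 1 point per gene, with a bar at the list's median and a dotted line at the median of all probes, -0.13. The list of other globins holds the points near 1, while the haem synthesis, membrane, enzyme and regulator lists have medians of -0.17, -0.15, -0.27 and -0.12.

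Proteins that clear haemoglobin and haem, and white cells that come with blood, were set beside the globins. In the clearance list 0 of 11 genes varied with Hbb by limma's test. Hp, which binds free haemoglobin, gave r = 0.51, Hpx, which binds free haem, 0.42, the haem oxygenases Hmox1 and Hmox2 0.40 and 0.51, the haemoglobin scavenger receptor Cd163 0.67 and Blvra -0.38. Without depletion 1, r was 0.25 for Hp, 0.16 for Hpx and 0.35 for Cd163. By point estimate depletion was above control by 1.15 ± 0.46 for Hp, 1.43 ± 0.51 for Hpx and 0.66 ± 0.31 for Hmox1, none past limma's test after adjustment. For Hp and Hpx the arrays that stood apart were depletion 1 and 2, at -0.93 and -0.42 for Hp and at -4.28 and -3.45 for Hpx, and the other 4 depletion arrays lay within the range of the control arrays. In the neutrophil list S100a8 and S100a9, subunits of calprotectin, gave r = 0.76 and 0.63, Mpo 0.10, Camp 0.03, Np4 -0.05 and Csf3r -0.02. S100a8 read -4.35, -4.70, -5.02 and -4.18 in control, -3.70, -5.38, -4.79 and -2.84 in repletion, and -4.19, -3.59 and -0.56 as lowest, median and highest of depletion, the highest being depletion 1. Without depletion 1 its r with Hbb was 0.50, and that of S100a9 0.30. The mean log2 level over the 8 neutrophil list genes kept was -5.21 to -4.43 over control arrays, -5.27 to -3.84 over depletion and -4.71 to -4.41 over repletion, with depletion 1 highest of all 14. Of the other defining neutrophil genes, Ngp was not well above background on any array, and Mmp8 was so on depletion 1 alone.

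Other blood, vessel and muscle cells were read in the same way. In the platelet list 0 of 7 genes varied with Hbb and the median r was -0.26, with Pf4 at 0.54 and Ppbp at -0.34. In the lymphocyte list 0 of 9 did and the median was -0.15, with Cd3d at -0.51 and Cd4 at -0.15. Without depletion 1 these medians were -0.06 for platelets and -0.03 for lymphocytes. Monocyte and macrophage genes had a median of 0.30 over the 9 with a value on every array (Cd14 0.63, Cd68 0.30, Aif1 0.41, Csf1r -0.09), and endothelial genes one of 0.14 (Pecam1 0.53, Cdh5 -0.35, Kdr 0.13, Vwf 0.09), again with 0 of 10 called in each list. In depletion against control all 10 monocyte and macrophage genes were higher by point estimate, with a median of 0.36, where 45.3% of all probes were higher. In limma none was called after adjustment, and at an unadjusted p under 0.05 only Aif1 (0.57 ± 0.24) was past, where 2.15% of all probes were higher. Their mean level was -1.76 to -1.22 over control arrays, -1.52 to -0.66 over depletion and -1.11 to -0.997 over repletion. In the muscle fibre list all 10 genes had a negative r and the median was -0.42, with Pvalb at -0.70 and Mylpf at -0.58. Without depletion 1 the median was -0.27, Pvalb -0.32 and Mylpf -0.31. The mean level of that list was 7.66 to 8.07 over control, 7.62 to 8.07 over depletion and 7.67 to 8.11 over repletion, and depletion 1 was the lowest of the 14 arrays. The part of white cell, fibre and red cell content in the differences between diets was not tested.

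The bases before the transcription starts of Hbb, Hba-a2 and Alas2 are shown, from RefSeq (GRCr8). Whether they bear on the order of the arrays that these genes shared was not tested. A promoter window was held for 4 of the 5 genes, not for Slc4a1. Each line gives 250 bases, 5′ to 3′ along the gene, with capitals on every match to the motifs searched on both strands: GATA (spelled AGATAA or TGATAA or AGATAG or TGATAG), KLF (CCNCNCCC) and TATA (spelled TATAAA or ATAAAA).

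Hbb (chr1:167663722-167663971, minus strand): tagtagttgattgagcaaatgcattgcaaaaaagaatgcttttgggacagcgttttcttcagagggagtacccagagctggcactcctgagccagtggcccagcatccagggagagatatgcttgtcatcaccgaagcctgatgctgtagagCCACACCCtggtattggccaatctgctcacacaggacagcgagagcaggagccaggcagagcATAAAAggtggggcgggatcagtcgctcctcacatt
Hba-a2 (chr10:15829139-15829388, minus strand): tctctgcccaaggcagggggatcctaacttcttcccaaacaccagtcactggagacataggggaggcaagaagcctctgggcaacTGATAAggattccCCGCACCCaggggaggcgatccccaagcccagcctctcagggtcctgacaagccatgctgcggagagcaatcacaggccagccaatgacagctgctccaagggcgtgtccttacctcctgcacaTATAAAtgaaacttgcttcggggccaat
Alas2 (chrX:22895200-22895449, plus strand): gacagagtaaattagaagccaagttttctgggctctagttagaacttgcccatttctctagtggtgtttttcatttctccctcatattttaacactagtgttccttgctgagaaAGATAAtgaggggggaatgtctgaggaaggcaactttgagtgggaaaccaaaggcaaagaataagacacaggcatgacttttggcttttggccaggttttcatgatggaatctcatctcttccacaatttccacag

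GATA motifs are the letters bound by GATA1 and KLF motifs those bound by KLF1, erythroid transcription factors. The Hbb window held 1 KLF match, 98 to 91 bases before the start, and a TATA match 36 to 31 bases before it, but no GATA match. In the Hba-a2 window a GATA match lay 165 to 160 bases before the start, a KLF match 152 to 145 and a TATA match 28 to 23. The Alas2 window held a GATA match 136 to 131 bases before the start and neither of the others. RefSeq gives Tspo2 4 starts, and 2 of those windows, which overlap, held the same GATA match and no other match. It lay 70 to 65 and 163 to 158 bases before their starts. No matches of different motifs overlapped. Of all 33469 windows of the same length, 27.0% held a GATA match, 42.8% a KLF match, 24.3% a TATA match and 7.57% both a GATA and a KLF match. A match describes letters in a window and is not evidence of binding.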

How the data were processed

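Total RNA of plantaris muscle, labelled with Cy3, was hybridised in 1 colour to Agilent rat arrays. Per the file headers, the deposited files come from Agilent Feature Extraction 11.5.1.1 and give each spot's intensity with the background subtracted within the array. The deposited series table holds the authors' log2 values (26902 probes, 5.662 to 19.423, column medians of 8.42 to 8.49). Per the submitters' processing notes limma was used, with settings not given in the sources used here. On each array those values correlated with the scanner values at 0.975 or more. They served as an alternative.

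Control spots and spots marked as outliers (0.669% to 1.05% per array) were left out, spots of a probe averaged, and the processed signal divided by its array's 75th percentile before log2. Of 30367 probes, 18438 were named by accession, 3168 by symbol, 357 kept the file's name and 8404 had none. A probe was kept if 4 or more of the 14 arrays had it well above background and every group had 2 or more values (26423 probes of 16165 named genes). Groups followed the titles. The 3 diets were fitted with limma 3.58.1 in R 4.3.3 with slide as a fixed block, and p-values were adjusted by Benjamini-Hochberg over all probes. Intervals are limma's, with slide in the model. The slope on Hbb used limma with slide and diet, over probes of other genes. Correlations used two-sided permutation tests (100000 resamples), adjusted over 10 pairs. The fits were tested on simulated data.

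The named genes were the 5 members, the 8 genes most like the Hbb 3′ probe in each of 2 rankings (1 probe per gene, the brightest), and the first genes of each of 12 lists. Further list genes are named for a small unadjusted p or a high or low r, as are Hba-a3 and the genes near background, and were chosen after their values were seen. A gene may stand in 2 lists. A few list genes count in the totals but are not reported here by name. Members and lists were chosen with earlier results of these data known. Alternatives were the slide as a random block or left out, replicate number as a block, normexp (offset 50), quantile, median centring, the authors' values, other filters, outlier spots kept, only the groups compared, and each array left out; settings without slide 1, without slide 5, and with slide means removed and depletion replicate 1 left out were chosen after seeing the data.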

Additional observations from a re-analysis of the deposited data

Results flagged for a closer look

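Of 39 groups of arrays examined, 2 held an array far from the others of its group; chance flags about 1 group in 20. S100a8 was at -0.56 on depletion replicate 1, where the next highest depletion array was at -3.03, a gap of 0.681 of the group's range. Hba-a3 was at -8.17 on depletion replicate 6, where the next lowest depletion array was at -3.65, a gap of 0.634 of the range. None of the 6 erythroid probes had such an array in any diet group, depletion replicate 1 included.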

How the results depend on the processing

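The calls for the 3 diet comparisons did not move: limma called 0 probes under every alternative run, and the lowest adjusted p of any erythroid probe under any alternative was 0.581 (limma). Titles share replicate numbers, but arrays of the same number deviated together at r of only -0.49 to 0.72. The numbers were therefore not taken as pairs. With a replicate block in place of slide limma still called 0. The Hbb 3′ probe was then at 1.00 in depletion against control, -0.70 in repletion against depletion and 0.30 in repletion against control. Under that block limma's unadjusted p in depletion against control ran from 0.00595 (Tspo2) to 0.0664 (Slc4a1), against 0.0375 to 0.138 with slide. In repletion against depletion it ran from 0.000914 (Tspo2) to 0.186 (Slc4a1), against 0.0234 to 0.295 with slide. The following estimates changed sign, with the cause not tested. In depletion against control, Tspo2 was at -0.089 with normexp, where the median of all probes was -0.14. In repletion against depletion, with depletion 1 counted as repletion, Hba-a2 was at 0.030, Alas2 at 0.012 and Slc4a1 at 0.19. In repletion against control, Tspo2 was at 0.070 on the authors' values, and with only the groups compared the Hbb 5′ and 3′ probes, Hba-a2 and Alas2 were at -0.28, -0.10, -0.24 and -0.26. Without slide 5 the Hbb 5′ probe was at -0.085 and Hba-a2 at -0.0020 in that comparison. With each array left out in turn, it ranged from -0.085 to 0.61 for the Hbb 5′ probe, from -0.0020 to 0.80 for Hba-a2 and from -0.42 to 0.12 for Tspo2. The number of probes that varied with Hbb was 0 to 4 with each array left out and 7 with no slide in the model. Under the other alternatives it was 4 to 6, each time including the same 4. Of the 10 pairs of genes, 4 passed with normexp, and 6 to 10 with each array left out. Tspo2 could not be tested where probes had to be well above background on all 14 arrays. In depletion against control Slc4a1 was at 0.33 with normexp and 0.50 on the authors' values, whose background correction is not known. The limits are the number of arrays, 1 array per sample and at most 4 to a slide.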
